A study of Mus musculus with 15 samples.

Results

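Replication-dependent histone genes encode the histones that package newly copied DNA, and their crosslinks to tristetraprolin were examined here. The genes were chosen by name alone, as protein-coding genes of the GENCODE M21 annotation whose symbols start with Hist1h, Hist2h, Hist3h or Hist4h, and this group was picked for description because histone genes stood near the top of 1 list in an earlier look at the same data. The rule found 67 of 21866 protein-coding genes: 6 of class H1, 18 of H2A, 18 of H2B, 12 of H3 and 13 of H4. It covered 394 of 162273 crosslink sites on the sense strand, with 1459 cDNAs. At least 1 site lay in 27 of the 67 genes.

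The sites came from iCLIP, in which UV light links a protein to the RNA it touches and the end of each cDNA marks the linked nucleotide. The cells were immortalised bone marrow-derived macrophages of C57BL/6 mice without endogenous TTP, transformed with hcmyc and hRasG12V, and all of them carried a tet-inducible vector for a GFP fusion and had received doxycycline for 6 h. They expressed GFP-TTP or GFP-TTP-AA (S52A and S178A, which the kinase MK2 cannot phosphorylate) and were lysed without LPS, which is called 0 h below, or following LPS for 1 h or 4 h. The GFP-TTP groups held 2, 4 and 2 libraries at 0 h, 1 h and 4 h, and the GFP-TTP-AA groups 2, 3 and 2. Each group was deposited as 1 pooled list of significant sites with unique cDNA counts, so no spread between replicates existed and all intervals below are 95% intervals for counting error only. Because the fusions were expressed in an immortalised line that lacks the endogenous protein, the lists describe that model.

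Lists differed in size, from 19167 cDNAs (GFP-TTP-AA, 4 h) to 174397 (GFP-TTP-AA, 1 h), so that a count of 0 allows a share of up to 0.0157% and 0.00172% of a list, respectively. They also differed in make-up. Sense cDNAs in exons of protein-coding genes numbered 4725 of 33587 for TTP and 6370 of 32617 for TTP-AA at 0 h, 12089 of 99263 and 98145 of 174397 at 1 h, and 1347 of 29060 and 1226 of 19167 at 4 h. The headers of both 1 h lists carried a peak-calling mark that the others lacked, so LPS time and the way of calling sites cannot be told apart. Of 8 macrophage markers, all 8 held cDNAs in the TTP-AA list at 1 h, 4 in the TTP list at 1 h and at most 1 in each other list, and cDNAs of bound RNA do not measure expression.

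mRNAs of replication-dependent histone genes differ from almost all other mRNAs of animal cells. They lack introns and a poly(A) tail as a rule, and end shortly after a conserved stem-loop in a short 3′UTR, which binds the stem-loop binding protein SLBP and controls their processing, translation and decay. Their levels rise in S phase and drop when DNA synthesis stops. TTP is best known for binding AU-rich elements such as AUUUA in the 3′UTRs of cytokine mRNAs and for recruiting the enzymes that remove the poly(A) tail, and MK2 phosphorylation limits that activity.

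Crosslinks concentrated in the stretch between the stop codon and the stem-loop, called the spacer below. The 30 bases after the stop codon are shown for the 4 genes with most cDNAs, because they held 565 of 566 of the 3′UTR cDNAs of Hist1h4d and all of those of the other genes shown (378, 264 and 42). Sequences are the transcript sense strand from GENCODE M21 (GRCm38), 5′ to 3′, with T for U, and capitals mark nucleotides that held at least 5% of the cDNAs in the window.
Hist1h4d, chr13:23581914-23581943, plus strand: acgtactCatttAttTTTcttcacccaaaa
Hist1h3c, chr13:23745057-23745086, minus strand: tggTTTtTatgcTATTtaaaaaaaggctct
Hist1h4a, chr13:23760816-23760845, minus strand: gacttTtttAattTgTatTTTCTaaccaaa
Hist1h4j, chr13:21735408-21735437, plus strand: gctgctcgctTacactATATTtCcctaaag

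The stem-loops that follow are shown for the leading 3 genes, since no crosslink lay within them. Capitals mark the 4 bases of the loop.
Hist1h4d, chr13:23581950-23581965, plus strand: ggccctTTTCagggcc
Hist1h3c, chr13:23745047-23745062, minus strand: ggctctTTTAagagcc
Hist1h4a, chr13:23760800-23760815, minus strand: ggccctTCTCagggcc

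Stem-loops were found by a pattern of 16 nt: GGNNCT, a loop of TTT and any base, and AG followed by the complement of the first arm. It occurred in 43 of 52 histone 3′UTRs of at least 16 nt (82.7%) and in 4 of 20914 3′UTRs of other genes (0.0191%). With 1 mismatch allowed, as needed for the loop of Hist1h4a, it was found in 45 histone 3′UTRs and in 29 others (0.139%). These 45 genes are used for positions relative to the stem-loop, except where an exact stem-loop is named.

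Histone genes took their largest share in the TTP-AA list without LPS. At 0 h, they held 169 cDNAs at 54 sites in the TTP list, or 0.503% of the list (0.433% to 0.585%), and 713 cDNAs at 155 sites in the TTP-AA list, or 2.19% (2.03% to 2.35%). At 1 h, they held 43 cDNAs at 34 sites for TTP, or 0.0433% (0.0322% to 0.0583%), and 511 at 133 sites for TTP-AA, or 0.293% (0.269% to 0.319%). At 4 h, 8 cDNAs at 6 sites were left for TTP, or 0.0275% (0.0140% to 0.0543%), and 15 at 12 sites for TTP-AA, or 0.0783% (0.0474% to 0.129%). In both proteins the share was thus largest at 0 h, and the intervals of the 1 h and 4 h lists overlapped for TTP but not for TTP-AA. The TTP-AA share at 4 h over that at 1 h was 0.267 (0.148 to 0.445) of all cDNAs but 2.36 (1.31 to 3.94) of exon cDNAs, so that the direction reversed with the denominator.

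The ratio of the shares, TTP-AA over TTP, was 4.34 (3.67 to 5.17) at 0 h, 6.76 (4.95 to 9.46) at 1 h and 2.84 (1.13 to 7.74) at 4 h. The value at 1 h depended on what the histone cDNAs were divided by. As a share of the cDNAs in exons of protein-coding genes, histone genes took 3.58%, 0.356% and 0.594% in TTP (0 h, 1 h and 4 h) and 11.2%, 0.518% and 1.22% in TTP-AA. On that scale the ratio was 3.12 (2.63 to 3.71) at 0 h, 1.46 (1.06 to 2.04) at 1 h and 2.06 (0.820 to 5.61) at 4 h. At 4 h, where 12 of the 15 TTP-AA cDNAs belonged to Hist1h4d, the ratio without this gene was 0.569, from 3 against 8 cDNAs.

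**Figure D1:**
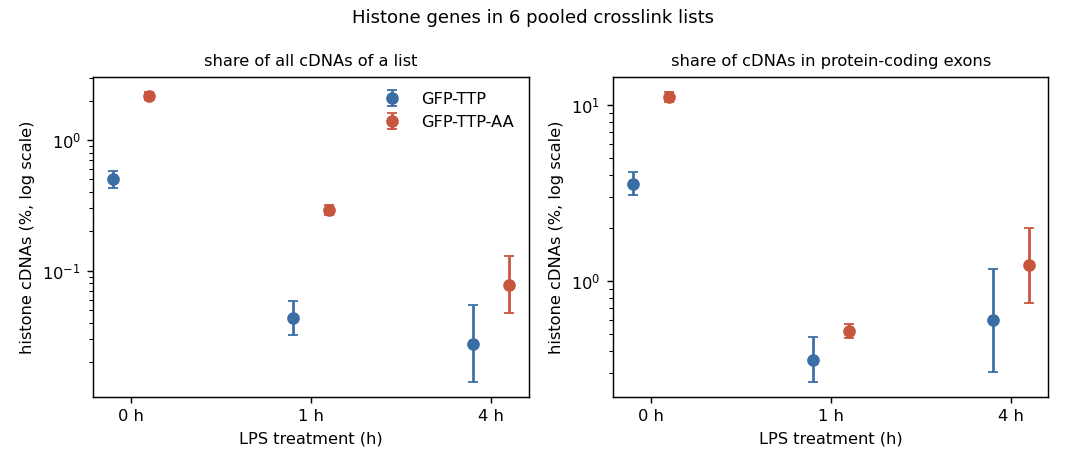
Share of histone cDNAs (%, log axis) by LPS time in h, of all cDNAs of a list (left) and of sense cDNAs in protein-coding exons (right), with points for the 6 pooled lists and bars for Wilson 95% intervals of counting error. TTP-AA at 0 h stands highest in both panels, at 2.19% and 11.2%, and the gap between the proteins at 1 h is wide on the left (0.293% against 0.0433%) and narrow on the right (0.518% against 0.356%).

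Between 0 h and 1 h, the share of histone cDNAs was 11.6 times lower at 1 h in TTP (ratio 0.0861, 0.0601 to 0.121) and 7.46 times lower in TTP-AA (0.134, 0.119 to 0.150). Relative to exon cDNAs, these ratios were 0.0994 (0.0694 to 0.140) for TTP and 0.0464 (0.0414 to 0.0521) for TTP-AA. The number of histone cDNAs itself differed less, since 713 and 511 were found in TTP-AA lists of 32617 and 174397 cDNAs. Exon cDNAs of TTP-AA numbered 6370 at 0 h and 98145 at 1 h, and a share also depends on these other cDNAs. Fewer cells with histone mRNA, less histone mRNA per cell and less crosslinking per mRNA cannot be told apart in whole cultures. Nor can they be told apart from more cDNAs of other RNAs or from the different calling of sites at 1 h.

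Histone H4 and H3 mRNAs, which encode the proteins that form the core tetramer of the nucleosome, provided most of the signal. Over the 6 lists, H4 genes held 945 cDNAs (64.8%) in 9 of 13 genes and H3 genes 418 (28.6%) in 6 of 12. H2A genes held 70 cDNAs (4.80%) in 6 of 18 genes, H2B genes 21 (1.44%) in 4 of 18, and the linker histone class H1 5 cDNAs (0.343%) in 2 of 6. With cDNAs up to 60 nt past genes annotated to end at the stop codon, which the rule leaves out, H2A genes held 238 of 1821 cDNAs (13.1%), H3 genes 456 (25.04%) and H4 genes 1093 (60.02%). The H4 part of the histone cDNAs was similar in size across the lists with most cDNAs, at 62.1% (54.6% to 69.1%) for TTP and 65.9% (62.4% to 69.3%) for TTP-AA at 0 h and 60.5% (45.6% to 73.6%) and 65.0% (60.7% to 69.0%) at 1 h. The ratio of TTP-AA over TTP at 0 h was 4.61 (3.72 to 5.75) for H4, 3.51 (2.61 to 4.77) for H3 and 7.00 (2.72 to 22.9) for H2A, with overlapping intervals. For H2A, it was 2.45 (1.75 to 3.48) with the cDNAs past annotated ends. H2B genes had 8 cDNAs in the TTP-AA list and 0 in the TTP list at 0 h, a share at least 2.75-fold higher when the 0 is replaced by 3 cDNAs.

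Most of the signal came from a few genes of the large cluster on chromosome 13. Of the 54 Hist1 genes, 22 had a site, with 1401 cDNAs in all. The 10 Hist2 genes had 45 cDNAs in 3 genes, the 2 Hist3 genes 6 in 1 gene and the single Hist4 gene 7. Hist1h4d, Hist1h3c and Hist1h4a together held 1227 of the 1459 cDNAs (84.1%). A further 5 genes had at least 10 cDNAs, 19 genes had 2 to 9 cDNAs (99 in all), and 40 had 0 within their annotation. Of these 40, 8 had cDNAs just past an end annotated at the stop codon. With such cDNAs counted, Hist1h4k (148) and Hist1h2af (142) came before Hist1h4j (42) and Hist1h3i (38) came after it, genes named after their values were seen.

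Hist1h4d (ENSMUSG00000061482.7, chr13:23581598-23582735, plus strand) encodes histone H4 and had 571 cDNAs, the most of any member. The TTP lists contained 70, 16 and 0 of them (0 h, 1 h and 4 h), and the TTP-AA lists 251, 222 and 12. Both 0 h values were above the 1 h values of the same protein once divided by list size, with 208 and 769 cDNAs per 100000 cDNAs of the list at 0 h against 16.1 and 127 at 1 h. The ratio of TTP-AA over TTP was 3.69 (2.82 to 4.88) at 0 h and 7.90 (4.76 to 14.1) at 1 h, and at least 6.07 at 4 h when the 0 of TTP is replaced by 3 cDNAs. As a share of exon cDNAs, the 1 h ratio was 1.71 (1.03 to 3.04).

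Hist1h3c (ENSMUSG00000069310.4, chr13:23744973-23745602, minus strand), a histone H3 gene, had 392 cDNAs. In order of time, there were 59, 10 and 8 in the TTP lists and 188, 127 and 0 in the TTP-AA lists. It was the only member with cDNAs in the TTP list at 4 h, where its share was at least 1.76-fold that of TTP-AA (0 replaced by 3 cDNAs), against the direction at 0 h and 1 h. The ratio of TTP-AA over TTP was 3.28 (2.44 to 4.47) at 0 h and 7.23 (3.80 to 15.4) at 1 h. Relative to exon cDNAs, the 1 h interval included 1 (1.56, 0.823 to 3.34).

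Hist1h4a (ENSMUSG00000060093.6, chr13:23760692-23761230, minus strand), another H4 gene, had 264 cDNAs. TTP contributed 27 at 0 h and 9 at 1 h, TTP-AA 146 and 82, and both lists had 0 at 4 h. The ratio was 5.57 (3.68 to 8.74) at 0 h and 5.19 (2.60 to 11.7) at 1 h, and 1.12 (0.563 to 2.54) at 1 h relative to exon cDNAs. All 264 cDNAs lay in the 3′UTR.

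The other 5 genes with at least 10 cDNAs were found mainly or only in the TTP-AA lists. Hist1h4j (ENSMUSG00000067455.5) had 23 and 11 TTP-AA cDNAs at 0 h and 1 h, where TTP had 8 and 0. Hist2h2ac (ENSMUSG00000068855.3), an H2A gene on chromosome 3, had 18 cDNAs at 0 h, 15 at 1 h and 3 at 4 h in TTP-AA and 0 in every TTP list. Hist1h4b (ENSMUSG00000069266.5) was found in TTP-AA at 0 h only, with 24 cDNAs. Against 3 cDNAs in place of 0, its share at 0 h was at least 8.24-fold that in TTP, that of Hist2h2ac at least 6.18-fold and that of Hist1h4h (ENSMUSG00000060981.7, 15 cDNAs at 0 h and 6 at 1 h) at least 5.15-fold. Hist1h3d (ENSMUSG00000099583.2) had 5 cDNAs at 0 h and 5 at 1 h in TTP-AA. The absence of Hist1h4b from the TTP-AA list at 1 h corresponds to a share at least 42.8-fold lower than at 0 h, again with 3 cDNAs in place of 0.

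**Figure D2:**
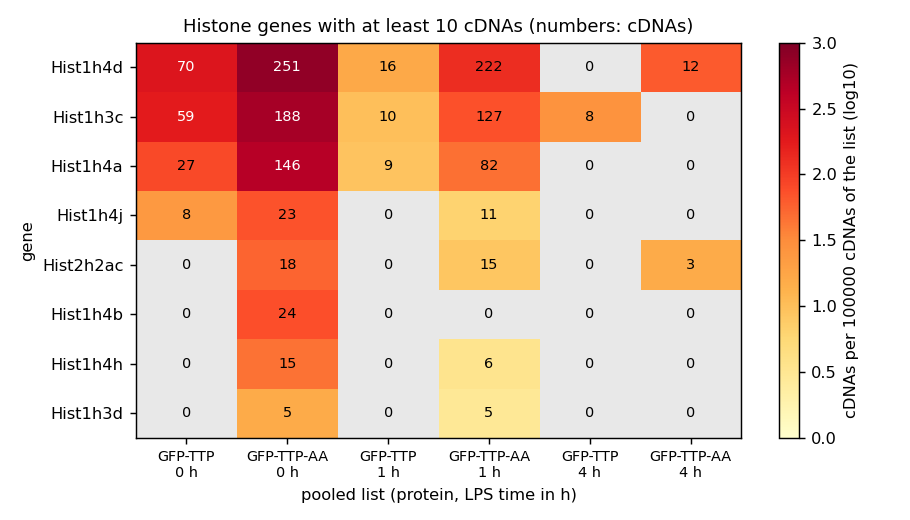
cDNAs of the 8 histone genes (rows) with at least 10 cDNAs in the 6 pooled lists (columns), with the number printed in each field, the colour giving log10 of cDNAs per 100000 cDNAs of the list and grey marking 0. Hist1h4d, Hist1h3c and Hist1h4a lead in every list at 0 h and 1 h, and the 4 h lists hold 8 cDNAs of Hist1h3c for TTP and 12 of Hist1h4d with 3 of Hist2h2ac for TTP-AA.

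Among protein-coding genes ranked by exon cDNAs, Hist1h4d, Hist1h3c and Hist1h4a took places 5, 7 and 17 of 831 genes with cDNAs in the TTP list at 0 h, and places 1, 2 and 3 of 974 in the TTP-AA list. At 1 h, they took places 96, 184 and 209 of 1707 for TTP and 37, 92 and 168 of 4822 for TTP-AA. As the lists differ in length and in the calling of sites, these places are not comparable between lists. Hist1h4d took place 12 of 264 genes in TTP-AA at 4 h, and Hist1h3c shared place 26 of 227 in TTP with other genes of 8 cDNAs.

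For a gene-by-gene view, every protein-coding gene with at least 10 exon cDNAs over 2 lists was compared, and a share that differed at least 2-fold was counted (pseudocount 0.5). At 0 h, 7 of 7 histone genes that met the minimum were higher in TTP-AA and 0 were lower, where 37.7% of all 276 genes were higher and 14.9% lower. The median log2 ratio of these histone genes was 2.46, and that of all genes 0.56. Of the 7, 3 had 0 TTP cDNAs and met the minimum through the TTP-AA list alone, which fixed their direction. At 1 h, 5 of 5 histone genes were higher in TTP-AA and 0 lower, but 85.4% of 2245 genes were higher and 1.92% lower. The histone median of 2.94 was below the 3.58 of all genes. Of the 5, 2 (Hist1h4j and Hist2h2ac) had 0 TTP cDNAs and met the minimum through the TTP-AA list alone, which fixed their direction. With exon cDNAs as the denominator, 2 histone genes were called higher at 1 h, and these were the 2 with 0 TTP cDNAs. No share over all genes is given for that scale. On that scale the ratios of Hist1h4d, Hist1h3c and Hist1h4a were 1.71, 1.56 and 1.12. At 4 h, the minimum was met by 1 histone gene, which had 0 TTP cDNAs and was higher in TTP-AA, beside 30% higher and 27.5% lower of 40 genes. Hist1h3c, with 8 TTP and 0 TTP-AA cDNAs in these lists, was below the minimum. The members were picked with such values known, so these counts are descriptive.

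The same count was made between the times. From 0 h to 1 h, 8 of 8 histone genes had a share at least 2-fold lower at 1 h in TTP-AA and 0 a higher one, where 6.27% of 2186 genes were lower and 73% higher. Their median log2 ratio was -3.12, against 2.34 for all genes. Among the 8, 1 (Hist1h4b) had 0 cDNAs at 1 h and met the minimum through the 0 h list alone. In TTP, 3 of 3 were lower and 0 higher, beside 42% lower and 33.6% higher of 336 genes, and the medians were -3.66 and -0.56. As only genes that passed the minimum entered, none of these counts describes all 67 members or supports a statement about them.

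By region, 1354 of the 1459 cDNAs (92.8%) lay in 3′UTRs, 73 (5.00%) in coding sequences, 26 (1.78%) in 5′UTRs and 6 (0.411%) in an intron of Hist1h2bc. In the list with most histone cDNAs, TTP-AA at 0 h, 95.8% lay in 3′UTRs (94.1% to 97.0%), compared with 94.1% of the exon cDNAs of other genes. For TTP at 0 h, the values were 97.0% (93.3% to 98.7%) and 92.3%. At 1 h, the 3′UTR part was smaller, at 81.4% (67.4% to 90.3%) for TTP and 88.5% (85.4% to 90.9%) for TTP-AA, with 79.1% and 95.3% in other genes.

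cDNAs in 5′UTRs were found in the 1 h lists only, with 2 for TTP and 24 for TTP-AA. Of the latter, 12 were in Hist2h2ac, at 6 nucleotides, and the other genes had 2 to 4 each. Coding sequence cDNAs were spread thinly, with 13 in Hist1h4h, 11 in Hist1h3c, 9 in Hist2h2ac and no more than 6 in any other gene. Hist1h4h differed from the 3 leading genes in that more of its cDNAs lay in the coding sequence (13) than in the 3′UTR (8).

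Of the 1354 3′UTR cDNAs, 1352 (99.9%, 99.5% to 100.0%) lay in the spacer, 0 within a stem-loop and 0 beyond one. The remaining 2 lay in Hist1h2bc, in whose 3′UTR no stem-loop was found. Spacers of the 45 genes add up to 1501 nt, stem-loops to 720 nt and annotated sequence beyond them to 23782 nt. Mature histone mRNAs end shortly after the stem-loop, so most of that later sequence could hardly yield cDNAs, and its 0 measures no preference. Within the annotated 3′UTRs, the signal lay in a small part in all 6 lists. In the TTP-AA list at 1 h, for example, 450 of 452 3′UTR cDNAs lay in the spacer, and in the TTP list at 0 h it was all 164.

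Near-identical histone genes can lose reads in a unique mapping, so the 31 bases after each position were compared with all GENCODE transcripts. They matched no other gene at 1079 of 1473 assessed spacer positions (73.3%), 538 of 642 stem-loop positions (83.8%), 19192 of 22493 positions beyond (85.3%) and 7898 of 26577 coding positions (29.7%). At such unique nucleotides, stem-loops and later sequence held 0 cDNAs. A mature histone mRNA ends shortly after the stem-loop, so cDNAs could hardly start there, and this 0 measures no lack of binding. Per 1000 unique nucleotides, spacers held 1253 cDNAs and coding sequences 7.34, a ratio of spacer to coding sequence of 171. This ratio rests mainly on Hist1h4d, Hist1h3c and Hist1h4a and is not typical of the other spacers. These 3 genes held 566, 378 and 264 of the 1352 spacer cDNAs, in 36, 24 and 30 unique nt. Coding sequences of H1 genes were unique at 3260 positions (84.1%) and held 0 cDNAs, in a class with 5 cDNAs in all. Counts of genes with many near-copies may thus be too low. The spacers of H4 genes were unique at 89.3% and those of H3 genes at 59.6% of positions. For H2A genes the value was lowest, at 49.6%, and for H2B and H1 genes it was 89.8% and 98.4%.

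Within the spacer, the median cDNA lay 15 nt after the stop codon and 17 nt before the stem-loop, with quartiles of 11 and 21 nt before it. This distance was 15.5 nt for TTP and 16 nt for TTP-AA at 0 h and 17 and 19 nt at 1 h. The closest cDNA was 4 nt before the stem-loop, which leaves 19 nt up to the end of the stem-loop. A mature histone mRNA ends shortly after that point, so a cDNA that starts further downstream would be short, and the part of mapping limits in the missing signal was not tested. Within 10 nt of an exact stem-loop lay 15.2% of the 3′UTR cDNAs for TTP (10.5% to 21.5%) and 14.1% for TTP-AA (11.7% to 16.9%) at 0 h, and 14.3% (6.26% to 29.4%) and 7.08% (5.06% to 9.82%) at 1 h. Hist1h4a, whose loop needs a mismatch, counts here in the denominator only. With 1 mismatch allowed, the TTP-AA values were 20.9% at 0 h and 11.1% at 1 h.

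**Figure D3:**
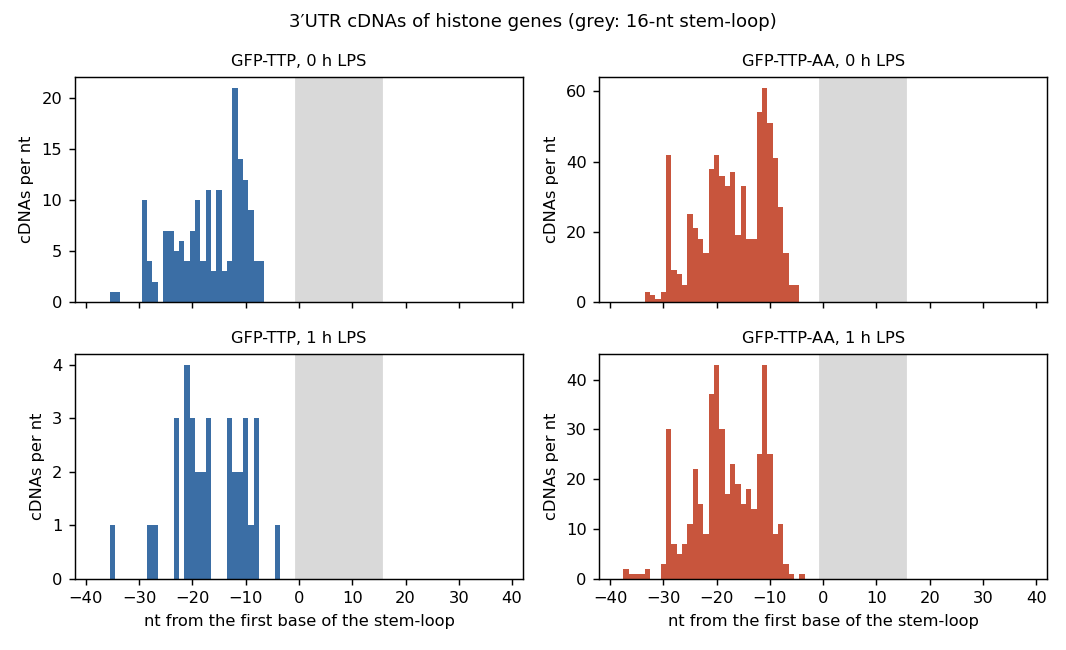
cDNAs per nucleotide (vertical axes, each with its own scale) by distance in nt from the first base of the stem-loop, summed over histone 3′UTRs with a stem-loop, for both proteins at 0 h and 1 h. All cDNAs lie to the left of the grey 16-nt stem-loop, with a median of 15.5 to 19 nt before it, and none lies within or to the right of it.

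Histone cDNAs lay closer to the stop codon than those of most other targets, with no adjustment for the length of the 3′UTR. As spacers measured 21 to 58 nt (median 31 nt), a cDNA in most spacers falls within 40 nt by construction. The shares below thus do not measure a preference for this stretch. The first 40 nt of the 3′UTR held 99.4% to 100% of the histone 3′UTR cDNAs in each list, whereas in other genes they held 1.03% (0.763% to 1.38%) for TTP and 1.53% (1.23% to 1.89%) for TTP-AA at 0 h and 2.85% (2.53% to 3.20%) and 1.86% (1.77% to 1.95%) at 1 h. Histone genes accordingly accounted for 79.2% of 207 TTP cDNAs and 89.1% of 762 TTP-AA cDNAs in this stretch at 0 h. At 1 h they accounted for 11.6% of 301 and 20.9% of 2154.

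Individual nucleotides within the leading genes were used by both proteins. In Hist1h4d, the 3′UTR cDNAs lay at 30 nucleotides between 2 and 32 nt after the stop codon. Nucleotide 8, a C directly before the AUUUA at nucleotides 9 to 13, held the most with 82 cDNAs, of which 10 of 70 were from TTP and 42 of 251 from TTP-AA at 0 h and 0 of 16 and 30 of 217 at 1 h. Nucleotide 17 came next with 62 cDNAs, in the run of U that follows.

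In Hist1h3c, the site with most cDNAs was nucleotide 14, the first base of the AUUUA at nucleotides 14 to 18, with 71 of 378 cDNAs. It held 9 of the TTP and 31 of the TTP-AA cDNAs at 0 h and 2 and 28 at 1 h. A further group of sites lay at the U run of nucleotides 4 to 8, mostly capitalised in the sequence above. Hist1h4a has no AUUUA in its spacer. Its leading site was nucleotide 21 with 34 of 264 cDNAs, in a U-rich stretch, and 20 of these came from TTP-AA at 0 h.

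**Figure D4:**
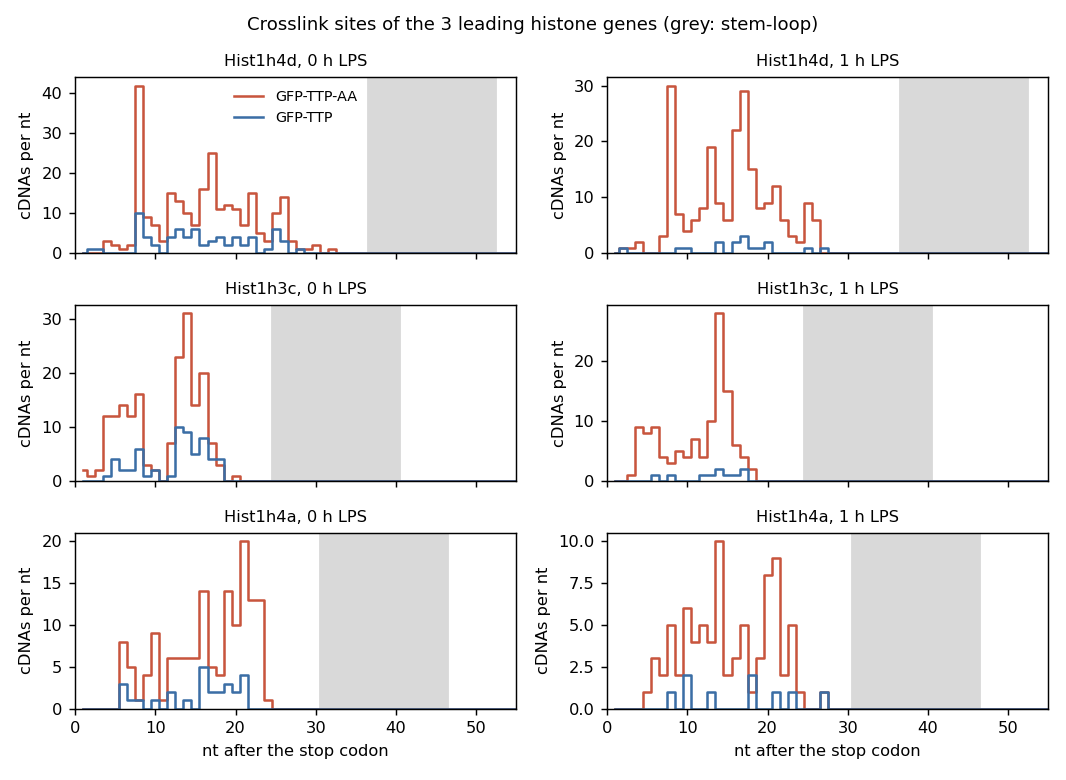
cDNAs per nucleotide (own scale in each panel) by distance in nt after the stop codon in Hist1h4d, Hist1h3c and Hist1h4a at 0 h (left) and 1 h (right), with lines for GFP-TTP and GFP-TTP-AA and grey for the stem-loop. The TTP-AA line peaks at nucleotide 8 in Hist1h4d (42 and 30 cDNAs) and at nucleotide 14 in Hist1h3c (31 and 28 cDNAs), and all lines are at 0 before the stem-loop begins.

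At 0 h, 47 of the 54 TTP sites (87.0%) were also TTP-AA sites at the same nucleotide, which made up 30.3% of the 155 TTP-AA sites. TTP-AA sites filled most of the leading spacers, with 28 at nucleotides 4 to 32 of Hist1h4d. There were 18 at nucleotides 1 to 20 of Hist1h3c and 19 at 6 to 24 of Hist1h4a. A TTP site there coincides with one almost by construction, so the overlap measures no shared choice of nucleotides. The shares over all sites below are not matched for this density. At 1 h, 25 sites were shared, or 73.5% of 34 for TTP and 18.8% of 133 for TTP-AA. At 4 h, 0 of the 6 TTP and 12 TTP-AA sites were shared, numbers too small to compare. Over all sites, shared nucleotides made up 29.5% (0 h), 44.9% (1 h) and 29.2% (4 h) of the TTP lists. For TTP-AA, these were 28.9%, 13.5% and 24.98%. At 0 h, 5 genes had TTP sites and 18 had TTP-AA sites, 4 of them in both, and in 7 and 18 genes at 1 h, again with 4 in both. TTP-AA at 0 h and 1 h shared 67 nucleotides, or 43.2% of the 0 h and 50.4% of the 1 h sites, and 12 genes.

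The depth of histone sites differed between lists. At 0 h, the mean number of cDNAs per site was 3.13 in TTP and 4.60 in TTP-AA, where all sites of these lists held 2.10 and 2.00. At 1 h, TTP-AA histone sites held 3.84 against 2.02, but TTP histone sites 1.26 against 3.82. At 4 h, they held 1.33 against 3.61 for TTP and 1.25 against 2.04 for TTP-AA. A single cDNA was present at 15 of 54 TTP and 72 of 155 TTP-AA sites at 0 h and at 26 of 34 and 66 of 133 sites at 1 h.

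The crosslinked base was U for 65.2% of the histone 3′UTR cDNAs of TTP (57.7% to 72.1%) and 60.03% of TTP-AA (56.3% to 63.6%) at 0 h, near the 63.4% and 66.0% in other genes. C was linked more often in histone genes than in other genes, with 22.6% (19.6% to 25.8%) against 9.08% for TTP-AA and 17.1% (12.1% to 23.6%) against 10.4% for TTP at 0 h. Without Hist1h4d, whose leading site is a C, C made up 12.96% for TTP-AA and 1.06% for TTP. The base and the positions of 1 gene are thus not independent of each other.

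AUUUA lay within 20 nt of 78.7% of the histone 3′UTR cDNAs of TTP (71.8% to 84.2%) and 63.7% of TTP-AA (60.02% to 67.2%) at 0 h, compared with 46.3% and 34.2% in other genes. At 1 h, these shares were 74.3% (57.9% to 85.8%) and 74.3% (70.1% to 78.2%), compared with 43.2% and 40.9%. They rest almost wholly on Hist1h4d and Hist1h3c. Without Hist1h4d, the values for TTP were 62.8% at 0 h and 52.6% at 1 h and those for TTP-AA 43.3% and 50.6%. These stand for 59 and 10 cDNAs of TTP and 187 and 119 of TTP-AA near the motif. In the same order, Hist1h3c held 59, 10, 182 and 119 3′UTR cDNAs, all 1 to 20 nt after the stop codon. Its AUUUA at nucleotides 14 to 18 is within 20 nt of each, so the other genes added almost none. The motif, read on the transcript strand only, occurred in the first 30 nt of the 3′UTR in 4 of 52 histone genes (7.69%) and in 468 of 20779 other genes (2.25%). UUUUU occurred there in 3 histone genes (5.77%) and 745 others (3.59%).

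Spacers of the 45 genes with a stem-loop measured 21 to 58 nt (median 31 nt), held 0% to 50% U (median 22.6%) and had a longest run of U of 2 nt in the median. The 3 leading genes had the longest U runs of these 45, with 5 nt in Hist1h4d and Hist1h3c and 6 nt in Hist1h4a. They were the only ones of the 45 with a run of at least 5. Genes annotated to end at the stop codon, among them Hist1h4k (148 cDNAs past the end) and Hist1h2af (142), have no annotated spacer and were not examined. Hist1h4a and Hist1h3c were also the most U-rich, at 50% and 45.8%, whereas Hist1h4d was in place 7 with 33.3%. AUUUA was present in the spacers of 4 genes, Hist1h4d, Hist1h3c, Hist1h2be and Hist1h2bg, the last 2 of which had 7 and 0 cDNAs and were named for the motif after their values were seen. Hist2h2ac, with 36 cDNAs of which 15 lay in the spacer, had a spacer with 9.52% U and no run of U.

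Across the 45 genes, Spearman's rho between the cDNAs of a gene in all its regions and the longest U run was 0.348. Between these cDNAs and U content it was 0.325. Both are descriptions, since the genes share libraries, many spacers are related in sequence, and the amount of each mRNA was not used here. Some spacers held no position unique to their gene, such as those of Hist2h2aa1 and Hist2h2aa2 with 0 of 58 each. What part lost reads had in their 0 cDNAs was not tested. U-rich spacers without cDNAs existed too, as 21 genes with a stem-loop had 0 cDNAs in any region. Among them the U content reached 36.7% and the longest U run 4 nt. Further genes had cDNAs outside the spacer only.

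**Figure D5:**
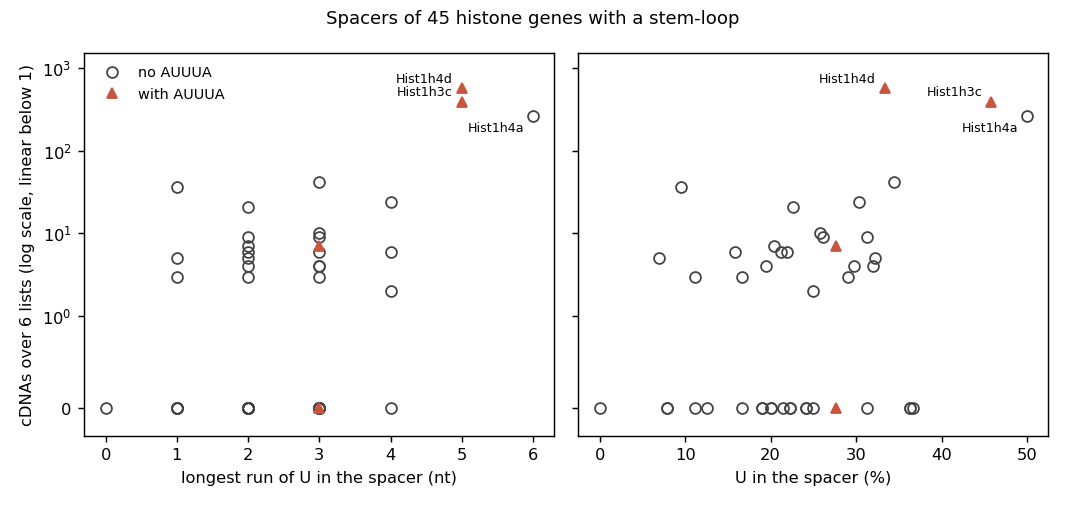
cDNAs of each histone gene in all its regions over the 6 lists (logarithmic axis, linear below 1) against the longest run of U in nt (left) and the U content in % (right) of its spacer, with 1 symbol for each of 45 genes and triangles for spacers with AUUUA. The 3 genes with 264 to 571 cDNAs are the 3 with U runs of 5 or 6 nt, while genes with runs of 4 nt or less range from 0 to 42 cDNAs. Genes without an annotated stem-loop, such as Hist1h4k and Hist1h2af, are not shown.

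Other genes linked to histone supply were compared by lists. The 11 replacement histone genes, which are also made outside S phase from mRNAs with a poly(A) tail, held few cDNAs at 0 h. Their cDNAs numbered 11, 13 and 0 in the TTP lists (0 h, 1 h and 4 h) and 9, 169 and 4 in the TTP-AA lists. As shares of the list, TTP had 0.0328% at 0 h and 0.0131% at 1 h, and TTP-AA 0.0276% and 0.0969%. Relative to exon cDNAs, these were 0.233% and 0.108% for TTP and 0.141% and 0.172% for TTP-AA. H3f3b, which encodes histone H3.3, had 3 and 0 cDNAs at 0 h and 10 and 99 at 1 h, and Cenpa, the centromeric H3 variant, had 8 and 5 at 0 h and 1 and 37 at 1 h. In TTP-AA, 3 of the 11 met the minimum of 10 cDNAs between 0 h and 1 h. Of these, 1 was at least 2-fold higher at 1 h and 0 lower, beside 73% higher and 6.27% lower of all genes. The median log2 ratio was 0.35, against 2.34 over all genes. H3f3b, with 0 TTP-AA cDNAs at 0 h, met the minimum through the 1 h list alone, which fixed its direction.

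Among 14 S-phase genes with ordinary polyadenylated mRNAs, 7 met the minimum in TTP-AA between 0 h and 1 h. Of these, 6 were higher at 1 h and 0 lower, beside 73% higher and 6.27% lower of all genes. Their median log2 ratio was 2.71, against 2.34 over all genes. Pcna, Mcm2, Mcm3, Ccna2 and Ccne2 had 0 TTP-AA cDNAs at 0 h. They met the minimum through the 1 h list alone, which fixed their direction. Rrm2, the ribonucleotide reductase subunit that limits dNTP supply, had 21 and 100 TTP-AA cDNAs at 0 h and 1 h, which are 0.0644% and 0.0573% of the lists, and 11 and 5 TTP cDNAs (0.0328% and 0.00504%). It was the member that was not called. Together, the S-phase genes took 0.0476% of the TTP and 0.0767% of the TTP-AA list at 0 h and 0.0141% and 0.178% at 1 h. Relative to exon cDNAs, they took 0.339% and 0.392% at 0 h and 0.116% and 0.317% at 1 h, so that the TTP-AA value was larger at 1 h on the list scale and smaller on the exon scale.

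Factors that process or degrade histone mRNAs carried few cDNAs. Of 15 such genes, 1 held cDNAs in each list at 0 h. At 1 h, 4 did so for TTP and 7 for TTP-AA, and at 4 h 0 did. Slbp, which encodes the stem-loop binding protein, had cDNAs at 1 h only, with 2 for TTP and 3 for TTP-AA. The highest count belonged to Cstf2, a subunit of the cleavage stimulation factor, with 1 and 3 cDNAs at 0 h and 6 and 28 at 1 h.

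The rule misses part of the signal, since 15 of the 67 genes are annotated to end within 5 nt of the stop codon and thus have no spacer. Up to 60 nt past those ends lay a further 64, 3 and 3 TTP cDNAs (0 h, 1 h and 4 h) and 194, 96 and 2 TTP-AA cDNAs. With them, the ratio of TTP-AA over TTP was within the interval given above at each time. Antisense strands of the 67 genes and annotated histone pseudogenes held 0 cDNAs in all 6 lists.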

How the data were processed

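iCLIP libraries of 15 samples in 6 groups (labels: protein and LPS time) were examined. The methods of the study state that the authors removed PCR duplicates by random barcode bases, mapped reads with Bowtie (version not given in the sources used here) to mm10 (GRCm38) with Ensembl 75, pooled the libraries of a group and kept sites at an FDR of 0.05 in iCount (100 permutations, 15 nt). The deposited score of a site is its count of unique cDNAs, signed by strand, with no further normalisation. The 1 h file headers carry an extra mark ("regionAsOne").

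Sites were assigned to GENCODE M21 (3′UTR before CDS before 5′UTR) in Python 3.11.15 with pandas 2.3.3, intervals were computed with numpy 2.4.6 and scipy 1.17.1, and plots used matplotlib 3.10.9. Release M21 differs from the annotation used by the authors. Positions in 3′UTRs refer to each gene's transcript of longest 3′UTR, and coordinates are 1-based.

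Each list is 1 value per group, so no test was made. Shares have Wilson 95% intervals and ratios of shares exact conditional binomial intervals, and both cover counting error only. A 0 is replaced by 3 cDNAs for bounds. Scripts were tested on simulated data.

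The members and gene lists were chosen with earlier results of these data known. Genes with at least 10 cDNAs over the 6 lists may be named, and other names are given where a count or a comparison list calls for them. A planned comparison of site sequences with the whole genome was not run, as no genome sequence was used here, and annotated transcripts took its place. Alternatives are given in the closing section.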

Additional observations from a re-analysis of the deposited data

Results flagged for a closer look

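Signal outside the genes as annotated exceeded the 3 cDNAs that a count of 0 allows in 3 lists. Within 60 nt past the annotated end of histone genes that end at the stop codon lay 64 cDNAs of TTP at 0 h, 194 of TTP-AA at 0 h and 96 of TTP-AA at 1 h. No control libraries were among the files. They belonged to 9 of 15 such genes and numbered 362 over the 6 lists. Hist1h4k had 148, Hist1h2af 142 and Hist1h3i 38, genes named after their values were seen, at 2 to 21 nt, 12 to 40 nt and 3 to 17 nt past the end.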

How the results depend on the processing

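The ratio of histone shares kept its direction under all alternatives run at 0 h and 1 h. At 0 h (4.34), it was 2.81 with each site counted once, 3.12 relative to exon cDNAs and 10.1 without the 3 genes with most cDNAs. The last value rests on few TTP cDNAs, 8 of Hist1h4j and 5 of an H2A gene, and leaves out cDNAs past annotated ends. At 1 h (6.76), it was 1.17 with each site counted once, 1.46 relative to exon cDNAs and 19.5 with only sites of at least 2 cDNAs. At 4 h (2.84), it reversed to 0.569 without Hist1h4d, and without the 3 leading genes no TTP cDNAs remained.

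Genes with a site numbered 5, 7 and 1 for TTP in order of time and 18, 18 and 2 for TTP-AA. At least 5 cDNAs left 3 and 10 at 1 h and 1 for TTP-AA at 4 h. Only 3′UTR sites left 3 and 11 at 1 h and 1 for TTP-AA at 4 h. Sites past the stop codon, added after the data were seen, gave 9 for TTP at 0 h and 2 at 4 h.

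The share within 10 nt of the stem-loop depended on the window. Within 5 nt, it was 0.732% for TTP-AA at 0 h and 0 in the lists that had another value. Within 20 nt, it was 58.5%, 54.3% and 100% for TTP in order of time and 54.9%, 51.8% and 58.3% for TTP-AA. Counting each site once gave 24.1% for TTP-AA at 0 h, a mismatch gave 20.9% at 0 h and 11.1% at 1 h, and only sites of at least 2 cDNAs gave 0 for TTP at 4 h.

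Genes past 2-fold numbered 7 higher at 0 h, 5 at 1 h and 1 at 4 h. With at least 5 cDNAs these were 14 and 9, with 1 lower at 0 h and 1 at 4 h. With at least 20, they were 3 at 1 h and 0 at 4 h. A 4-fold threshold left 4 at 0 h, exon cDNAs left 2 at 1 h, and only sites of at least 2 cDNAs left 0 at 4 h. From 0 h to 1 h, 3 genes were lower in TTP and 8 in TTP-AA, and at least 5 cDNAs gave 5 and 15, with 1 higher in TTP-AA. A threshold on cDNAs changes the number of genes compared by construction, and the other causes were not tested. Shares over all genes, such as 37.7% higher at 0 h and 85.4% at 1 h, are given for the main setting only. The counts under alternatives thus have no background beside them and are not read as a result about histone genes.

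In all, 104 values stayed within the limits set, 41 moved and 1 reversed. No paired analysis was possible because each list holds the sum of its libraries, and for the same reason no replicate was left out. The comparison with the whole genome was not run.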
